A study of Mus musculus with 12 samples.

Results

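The genes of cholesterol synthesis, uptake and efflux were followed in liver RNA from mice with diet-induced obesity. The set was a list of 36 gene symbols, 20 for enzymes that make cholesterol, 3 for regulators, 5 for proteins that carry or respond to sterols inside the cell, 3 for enzymes that esterify cholesterol, 1 for a lipoprotein receptor and 4 for efflux pumps. A row of the table belonged to the set when its Ensembl identifier carried one of these symbols in GENCODE M21 (build mm10). All 36 were found among the 46078 genes of the table, and all 36 were among the 13054 genes with enough counts to be tested.

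The 12 libraries came from C57BL/6 mice aged 21 weeks, all of which had been made obese on a high-fat diet before surgery, so no lean or unoperated animals enter the comparisons. By the study's methods, mice of all groups were given the high-fat diet again after surgery. In the 4 VSG mice most of the stomach was removed along its outer curve (vertical sleeve gastrectomy). The 4 Sham-WM mice had a sham operation and then restricted food, so as to match the weight of the VSG mice, and the 4 Sham-Ad lib mice had a sham operation and then ate freely. All were killed after a short fast, and poly(A) RNA of whole liver was sequenced, 1 library per mouse. VSG against Sham-WM therefore compares surgery with food restriction at matched weight, while both comparisons with Sham-Ad lib use the same 4 control libraries and are not independent of each other.

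Liver cells build cholesterol from acetyl-CoA, first by the mevalonate steps to farnesyl diphosphate and then by the sterol steps through squalene and lanosterol. When sterols in the endoplasmic reticulum run low, the transcription factor encoded by Srebf2 is released from that membrane and switches on nearly all of these enzymes together. When sterols are plentiful, oxidised sterols activate the LXR receptors, one of them encoded by Nr1h2, which switch on genes for cholesterol efflux. The liver is also the organ that takes cholesterol back from high-density lipoprotein and sends it into bile.

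Values are given as CPM, a gene's count scaled to the size of its library with TMM factors. In each sentence of values the order of the mice is 3F, 4F, 6F and 10F for Sham-Ad lib, 2F, 9F, 15F and 16F for Sham-WM, and 1F, 8F, 11F and 18F for VSG. Differences are log2 fold changes with their standard error (SE) from edgeR's quasi-likelihood test on all 12 libraries, with 4 libraries a group, and "edgeR adjusted p" is that test's Benjamini-Hochberg adjusted p over all genes tested. A gene is said to be called where that p was under 0.05, and calls by DESeq2 are named as such. Library totals ran from 15122520 to 19384076 counts. Whole tissue was sequenced, so fewer cells of a type and less RNA per cell cannot be told apart. A running number in the library names forms 1 unbroken block per group, so an effect of library order and an effect of the group cannot be told apart either. The sample titles and the library names share an animal number, by which the groups were set, but a second label field gives 8 of the 12 libraries another group; with that field edgeR called 0 of the 36 genes and 0 genes of any kind in each of the 3 comparisons (2, 0 and 1 of the 36 had an unadjusted p under 0.05 for VSG versus Sham-Ad lib, Sham-WM versus Sham-Ad lib and VSG versus Sham-WM), and every result here rests on the animal numbers.

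In VSG livers 9 of the 20 synthesis enzymes were lower than in livers of weight-matched mice, and 4 of the 8 efflux, uptake and storage genes were higher. Against Sham-WM, 16 of the 36 genes passed the test: 10 were lower after VSG (27.8%), where 11.9% of all tested genes were lower, and 6 were higher (16.7%), a share near the 15.0% of all tested genes that were higher. The 10 lower genes were 9 of the 20 synthesis enzymes and Rdh11, and the 6 higher genes were Soat1, Scarb1, Abcg1, Abcg8, Npc2 and Nr1h2. The synthesis enzymes had a median log2 fold change of -1.09, with 19 of 20 below 0, while the median over all tested genes was 0.03 with 47.7% below 0. The 8 efflux, uptake and storage genes had a median of 0.55, with 7 of 8 above 0. The groups did not overlap for 13 genes that were lower in VSG (36.1%), where 11.9% of all tested genes were apart in that direction, and for 5 that were higher (13.9%), where the share was 14.3%. DESeq2 called 12 lower (33.3%) here, where it called 12.8% of its genes lower, with Mvd, Srebf2 and Stard4 in place of Hmgcs1, and 6 higher (16.7%), near the 14.9% of its genes. With 2 RUVs factors, which take up unwanted variation seen between mice of a group, edgeR called 4 of the 36 in this comparison, Pmvk and Sc5d lower and Npc1 and Scarb1 higher. That fit called 3.73% of all tested genes, and 17 of the 36 had an unadjusted p under 0.05.

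Against Sham-Ad lib, 3 of the 20 synthesis enzymes were lower after VSG and passed the test, and no other of the 36 genes did. The 20 enzymes had a median log2 fold change of -1.24, with 19 of 20 below 0, and the median over all tested genes was 0.03 with 46.8% below 0. The 8 efflux, uptake and storage genes had a median of 0.15. Lss, Hsd17b7 and Sc5d were called lower, 3 of the 36 genes (8.33%), where 0.283% of all tested genes were lower. None was called higher by edgeR, where 0.467% of all tested genes were, although 4 of the 36 were higher and 18 lower at an unadjusted p under 0.05. DESeq2 on the same counts called 15 lower (41.7%) and 1 higher (2.78%), where it called 3.32% of its genes lower and 5.10% higher. Its lower genes were Acat2, Aacs, Hmgcs1, Pmvk, Idi1, Fdps, Fdft1, Lss, Nsdhl, Hsd17b7, Sc5d, Dhcr7, Stard4, Npc1 and Rdh11, and its higher gene was Soat1. The groups did not overlap for 10 genes lower in VSG (27.8%), where 4.34% of all tested genes were apart in that direction, and for 2 higher (5.56%), a share near the 4.87% of all tested genes. With 2 RUVr factors, taken from the residuals of the fit, edgeR called 21 of the 36 here, where it called 23.2% of all tested genes. With RUVs factors or with only these 8 libraries it called 0 of the 36 (17 and 23 at an unadjusted p under 0.05), where it called 0.0460% and 0% of all tested genes. The count of edgeR calls was 0 when any 1 of libraries 6F, 10F, 2F, 9F, 15F, 16F or 1F was left out. Those fits called 0 to 3 genes of any kind, and 22 to 26 of the 36 had an unadjusted p under 0.05. Leaving out 3F or 11F gave 1 call, 8F gave 4, 18F gave 7 and 4F gave 13. In the same order, these 5 fits called 0.00752%, 0.521%, 1.72%, 8.20% and 6.82% of all tested genes.

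Between Sham-WM and Sham-Ad lib, Npc1 and Abcg8 were lower in the food-restricted mice, and no synthesis enzyme passed the test. The 20 enzymes had a median log2 fold change of -0.09, with 9 above 0 and 11 below, where 49.9% of all tested genes were below 0, and edgeR called 0 of 20 (2 had an unadjusted p under 0.05, and DESeq2 called 0). The 8 efflux, uptake and storage genes had a median of -0.23, with 7 of 8 below 0. The 2 called genes were 5.56% of the 36, where 3.45% of all tested genes were lower. None was called higher by edgeR, where 3.53% of all tested genes were (1 of the 36, Pmvk, was higher at an unadjusted p under 0.05, and DESeq2 called 0 higher). DESeq2 called Npc1, Abcg8 and Nr1h2 lower (8.33%), where it called 4.93% of its genes lower and 5% (707 of 14131) higher. The groups did not overlap for 3 genes lower in Sham-WM, Npc1, Abcg8 and Nr1h2 (8.33%), a share near the 8.40% of all tested genes that were apart in that direction, and for 0 higher, where the share was 9.17%.

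**Figure D1:**
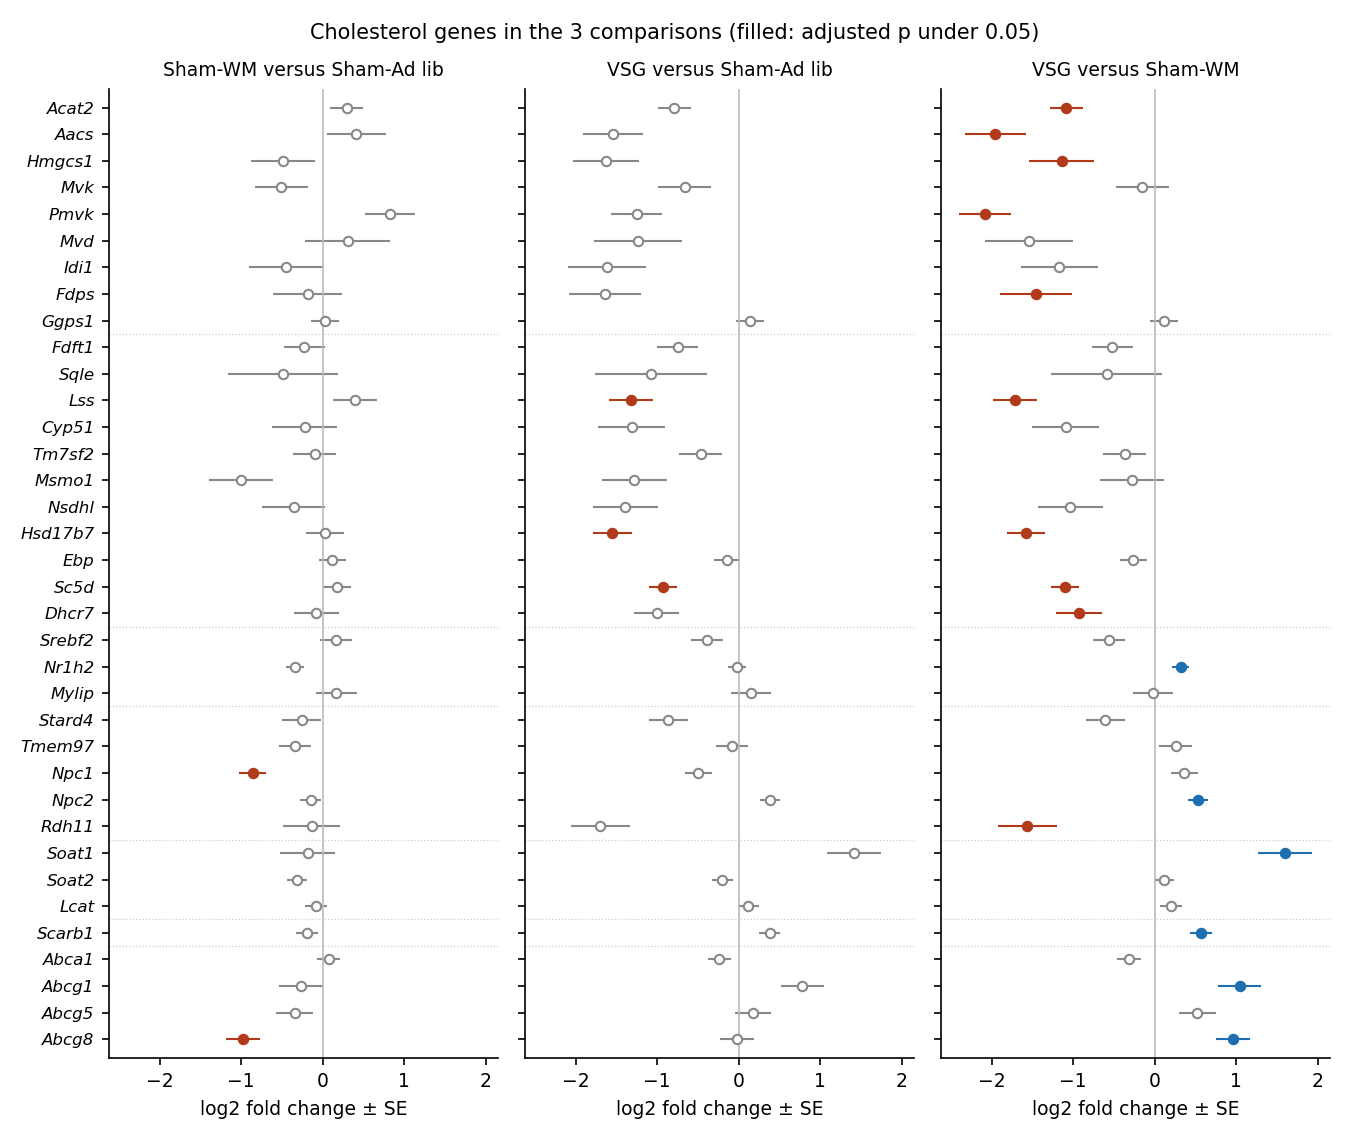
Log2 fold change (x axis) with its SE for each of the 36 genes (y axis, in the order synthesis by the mevalonate and then the sterol steps, regulators, traffic, storage, uptake and efflux, with dotted lines between them) in the 3 comparisons; filled red points were called lower and filled blue points higher by edgeR at an adjusted p under 0.05, and open grey points were not called. In VSG versus Sham-WM the 10 filled red points are 9 synthesis enzymes and Rdh11, and the 6 filled blue points are Nr1h2, Npc2, Soat1, Scarb1, Abcg1 and Abcg8.

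The mevalonate steps begin with enzymes that join acetyl units. Acat2, the cytosolic thiolase that makes acetoacetyl-CoA, stood at 97.2, 68.5, 58.2 and 66.3 CPM in the Sham-Ad lib libraries, 102, 121, 68.2 and 64.4 in the Sham-WM libraries and 46.1, 37.8, 45.2 and 38.9 in the VSG libraries. Every VSG library lay below all 8 libraries of the sham-operated groups, and the difference was called against Sham-WM (log2 fold change -1.08, SE 0.21, edgeR adjusted p = 0.00317) but not against Sham-Ad lib (log2 fold change -0.79, SE 0.21, edgeR adjusted p = 0.0655). Acat2 has a close paralog beside it on chromosome 17, Acat3, and reads that fit both could be counted for either. Acat3 itself had a log2 fold change of 0.15 against Sham-WM (edgeR adjusted p = 0.429). Aacs, which makes the same intermediate from the ketone body acetoacetate, stood at 151, 94.6, 96.6 and 140.1 CPM in the Sham-Ad lib libraries, 221, 247, 112.1 and 62.9 in the Sham-WM libraries and 30.4, 54.3, 28.9 and 52.2 in the VSG libraries. It had one of the largest differences against Sham-WM (log2 fold change -1.95, SE 0.38, edgeR adjusted p = 0.00329), again with every VSG library below the other 8, and it was 2.91-fold lower than Sham-Ad lib without passing the test (edgeR adjusted p = 0.0573). Hmgcs1, the synthase that adds the next acetyl unit to give HMG-CoA, stood at 887, 440.4, 209 and 354 CPM in the Sham-Ad lib libraries, 274, 539, 242 and 297 in the Sham-WM libraries and 234, 138, 95.9 and 144 in the VSG libraries. VSG library 1F overlapped with Sham-Ad lib library 6F, and the call against Sham-WM was just inside the threshold (log2 fold change -1.14, SE 0.40, edgeR adjusted p = 0.0497): it held in 3 of the 12 fits that left out 1 library each.

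Of the kinases and the later mevalonate enzymes, Pmvk, phosphomevalonate kinase, had the lowest log2 fold change between VSG and Sham-WM. It stood at 58.6, 31.8, 22.6 and 31.3 CPM in the Sham-Ad lib libraries, 75.3, 88.4, 45.3 and 47.4 in the Sham-WM libraries and 19.7, 18.6, 10.2 and 11.9 in the VSG libraries. The VSG libraries lay below all the others, and the Sham-WM libraries had the highest mean of the 3 groups. VSG was 4.23-fold lower than Sham-WM (log2 fold change -2.08, SE 0.32, edgeR adjusted p = 0.00122), the largest of the 36 differences in that comparison. Fdps, which makes farnesyl diphosphate, stood at 48.2, 25.8, 12.4 and 36.2 CPM in the Sham-Ad lib libraries, 31.7, 43.6, 16.6 and 16.1 in the Sham-WM libraries and 14.1, 12.6, 4.74 and 7.56 in the VSG libraries. The VSG libraries lay below those of Sham-WM, and library 6F of Sham-Ad lib lay within the VSG range. Fdps was called against Sham-WM (log2 fold change -1.46, SE 0.44, edgeR adjusted p = 0.0281), a call that held in 8 of the 12 fits that left out 1 library, and it was not called against Sham-Ad lib (log2 fold change -1.64, SE 0.44, edgeR adjusted p = 0.0663). Fdps shares its locus with a predicted gene on the same strand, Gm43738, to which 0 counts were given, so reads within the shared stretch may have gone uncounted.

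The other members of the mevalonate steps were not called by edgeR in any comparison, while DESeq2 called Mvd lower against Sham-WM (DESeq2 adjusted p = 0.0453) and Idi1 lower against Sham-Ad lib (DESeq2 adjusted p = 0.0413). Mvd, the decarboxylase, was just outside the threshold against Sham-WM (log2 fold change -1.54, SE 0.54, edgeR adjusted p = 0.0502), and Idi1, the isomerase after it, had a similar difference (log2 fold change -1.17, SE 0.47, edgeR adjusted p = 0.0804). Mvk, mevalonate kinase, had a log2 fold change of -0.15 between VSG and Sham-WM (SE 0.32), and ran from 9.63 to 33.0 CPM over the 12 libraries. Ggps1 makes geranylgeranyl diphosphate for protein prenylation, a branch that leaves the path to cholesterol. It was the single enzyme of the 20 whose log2 fold change after VSG was above 0 (0.14 against Sham-Ad lib and 0.11 against Sham-WM, neither called), and it lay between 3.89 and 6.10 CPM in all 12 libraries. The opposite strand of its locus holds Arid4b, and the sources do not state whether the counting used strand.

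In the sterol steps, 3 enzymes were called lower in VSG against both other groups, Lss (chr10:76531588-76557138 in mm10), Hsd17b7 (chr1:169949535-169969241) and Sc5d (chr9:42251595-42264256). Lss, which closes squalene epoxide into lanosterol, stood at 113.5, 60.1, 43.5 and 67.5 CPM in the Sham-Ad lib libraries, 100.3, 130.4, 72.7 and 71.3 in the Sham-WM libraries and 31.3, 33.1, 22.7 and 26.8 in the VSG libraries. Against Sham-WM it was 3.28-fold lower (log2 fold change -1.71, SE 0.27, edgeR adjusted p = 0.00140), and against Sham-Ad lib 2.49-fold lower (log2 fold change -1.32, SE 0.27, edgeR adjusted p = 0.0469). Hsd17b7, the ketone reductase of the complex that strips methyl groups from lanosterol, stood at 134, 62.4, 54.7 and 69.3 CPM in the Sham-Ad lib libraries, 75.9, 91.1, 73.4 and 86.0 in the Sham-WM libraries and 30.3, 28.1, 21.7 and 29.0 in the VSG libraries. The VSG mean was 27.3 ± 3.81 CPM (SD, n = 4) against 81.6 ± 8.37 in Sham-WM and 80.1 ± 36.5 in Sham-Ad lib, where library 3F was far above its group. It had the lowest edgeR adjusted p of the 36 genes in both comparisons with VSG, 0.00112 against Sham-WM (log2 fold change -1.58, SE 0.24) and 0.0410 against Sham-Ad lib (log2 fold change -1.55, SE 0.24). Sc5d, the desaturase next to last in the path, had the highest level per length of the synthesis enzymes, 124 CPM per kb of exon over the 12 libraries, and stood at 847, 688, 523 and 674 CPM in the Sham-Ad lib libraries, 855, 942, 655 and 629 in the Sham-WM libraries and 321, 399.5, 348 and 368 in the VSG libraries. It was lower by a smaller factor (log2 fold change -1.10, SE 0.17, edgeR adjusted p = 0.00127 against Sham-WM and log2 fold change -0.93, SE 0.17, edgeR adjusted p = 0.0435 against Sham-Ad lib). For all 3 genes every VSG library lay below every other library. The calls against Sham-WM held in all 12 fits that left out 1 library, while those against Sham-Ad lib held in 3 of 12 for Lss, 5 of 12 for Hsd17b7 and 3 of 12 for Sc5d.

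**Figure D2:**
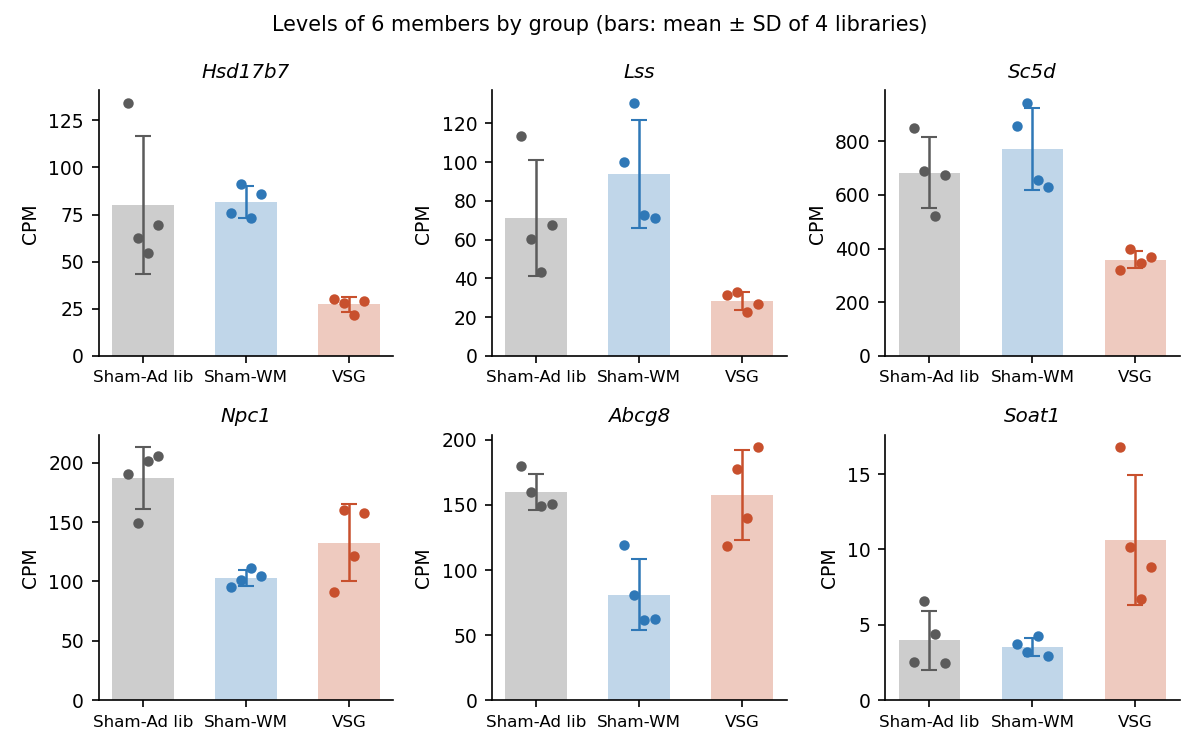
CPM (y axis, from 0) of Hsd17b7, Lss, Sc5d, Npc1, Abcg8 and Soat1 in the 3 groups; points are the 4 libraries of a group, bars their mean and error bars the SD. The VSG points of Hsd17b7, Lss and Sc5d lie below all others, Npc1 and Abcg8 are lowest in Sham-WM by their means, and the Soat1 points of VSG lie above the rest, the nearest at 6.70 against 6.59 CPM.

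Dhcr7, the reductase of the last step, stood at 138, 113.2, 66.5 and 127 CPM in the Sham-Ad lib libraries, 119, 159, 66.0 and 75.9 in the Sham-WM libraries and 63.9, 63.6, 41.5 and 52.0 in the VSG libraries. The VSG libraries lay below all Sham-WM and Sham-Ad lib libraries, by a narrow margin, and the difference was called against Sham-WM only (log2 fold change -0.93, SE 0.28, edgeR adjusted p = 0.0279, held in 9 of the 12 fits that left out 1 library, and log2 fold change -1.01, SE 0.28, edgeR adjusted p = 0.0708 against Sham-Ad lib). The remaining 7 sterol enzymes were not called by edgeR in any comparison, and DESeq2 called Fdft1 and Nsdhl lower against Sham-Ad lib. They were Fdft1 (squalene synthase), Sqle (squalene epoxidase), Cyp51, Tm7sf2, Msmo1, Nsdhl and Ebp, which demethylate, reduce and rearrange lanosterol. All 7 had negative log2 fold changes in both comparisons with VSG, from -0.14 for Ebp to -1.39 for Nsdhl against Sham-Ad lib and from -0.26 for Ebp to -1.09 for Cyp51 against Sham-WM. Msmo1, the methylsterol oxidase, was the sterol enzyme that lay lowest in Sham-WM relative to Sham-Ad lib (95% interval of the log2 difference from -1.77 to -0.23, edgeR adjusted p = 0.152), and between VSG and Sham-WM the 95% interval of this difference ran from -1.04 to 0.49. Fdft1 and Cyp51 overlap genes on the opposite strand, Ctsb and Akap9, and Tm7sf2 overlaps Vps51 on the same strand, so their counts are less certain.

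**Figure D3:**
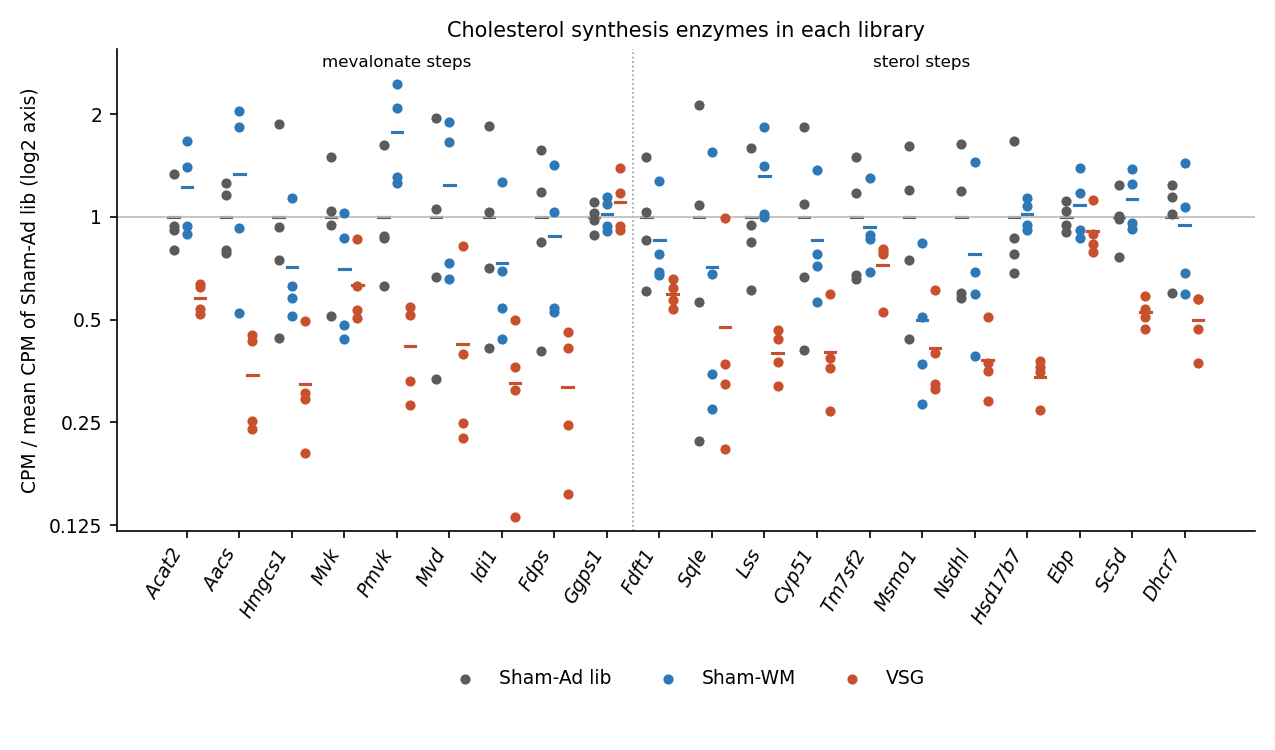
CPM of each of the 20 synthesis enzymes in each library, divided by the gene's mean in Sham-Ad lib (y axis, log2 scale); points are libraries, short bars group means, and the dotted line parts the mevalonate from the sterol steps. The VSG means lie below 1 for 19 of the 20 genes, all but Ggps1, and the Sham-Ad lib points of single genes such as Sqle are spread as widely as the groups are apart.

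The sequences before the starts of the called enzymes are shown because the product of Srebf2 acts at such sites together with a CCAAT-binding factor. They were read from RefSeq windows of 300 bases (250 before and 50 after a start, build GRCm38.p6), of which 28 of the 36 genes had at least 1; none was given for Abcg1, Fdft1, Fdps, Npc1, Scarb1, Soat2, Sqle and Stard4. Up to 200 bases before the start, as far as they lie upstream of both the RefSeq and the GENCODE start, are printed for the 4 synthesis enzymes with the lowest p against Sham-WM that had a window, and capitals mark CCAAT, which reads as ATTGG where it lies on the other strand, and the E-box CACGTG. They lie upstream of Hsd17b7 (chr1:169969242-169969405, minus strand), Pmvk (chr3:89454341-89454540, plus strand), Sc5d (chr9:42264301-42264500, minus strand) and Lss (chr10:76531405-76531587, plus strand).
Hsd17b7: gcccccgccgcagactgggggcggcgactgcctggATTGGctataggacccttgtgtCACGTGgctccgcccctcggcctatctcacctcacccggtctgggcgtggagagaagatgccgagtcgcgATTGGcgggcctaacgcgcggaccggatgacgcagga
Pmvk: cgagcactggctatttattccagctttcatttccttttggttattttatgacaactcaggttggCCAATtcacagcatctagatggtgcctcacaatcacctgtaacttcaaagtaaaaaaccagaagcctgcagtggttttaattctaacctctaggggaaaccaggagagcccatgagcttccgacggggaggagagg
Sc5d: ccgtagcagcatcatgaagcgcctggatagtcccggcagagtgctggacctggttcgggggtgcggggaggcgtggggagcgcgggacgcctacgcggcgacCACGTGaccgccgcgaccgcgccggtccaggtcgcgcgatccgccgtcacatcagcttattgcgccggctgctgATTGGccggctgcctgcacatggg
Lss: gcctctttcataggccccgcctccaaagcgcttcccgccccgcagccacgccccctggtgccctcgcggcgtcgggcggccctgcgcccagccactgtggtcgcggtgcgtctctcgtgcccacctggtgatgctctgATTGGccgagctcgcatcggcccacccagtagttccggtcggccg
Counted back from the RefSeq start, Hsd17b7 holds CCAAT at 165, 73 and 12 bases, the last of them beyond the part printed, and CACGTG at 143. Sc5d holds CCAAT at 24 and CACGTG at 98, Lss holds CCAAT at 62, and Pmvk holds CCAAT at 136 in the window shown, while its other window, 5030 bases downstream, holds none of the letters searched. Over whole windows and both strands, CCAAT was found in 15 of the 17 synthesis enzymes with a window (88.2%), in 4 of the 5 efflux, uptake and storage genes with a window (80%), in 24 of all 28 members with a window (85.7%), in 42.8% of the 10114 tested genes with a window and in 37.4% of all 32851 windows.

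Another set of letters, CACCCCAC, which belongs to a known sterol regulatory element, was found in 2.87% of all windows, in 3.82% of tested genes and in 2 of the 17 synthesis enzymes, Hmgcs1 and Acat2. Their upstream sequences (chr13:119690151-119690350, plus strand, and chr17:12960748-12960925, minus strand) are printed for this match and were chosen after it was seen, with CACCCCAC and ATTGG in capitals.
Hmgcs1: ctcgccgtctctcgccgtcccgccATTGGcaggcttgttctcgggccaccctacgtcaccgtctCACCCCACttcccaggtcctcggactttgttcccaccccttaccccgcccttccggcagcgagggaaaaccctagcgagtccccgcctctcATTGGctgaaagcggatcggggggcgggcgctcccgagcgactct
Acat2: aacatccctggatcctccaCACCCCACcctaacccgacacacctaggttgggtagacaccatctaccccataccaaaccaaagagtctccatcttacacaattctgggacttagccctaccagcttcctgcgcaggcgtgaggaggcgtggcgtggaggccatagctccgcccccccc
The match lies 136 bases before the Hmgcs1 start and 181 before that of Acat2. CACGTG was found in 3 of the 17 enzymes (17.6%), in 11.7% of tested genes and in 7.15% of all windows. Matches of the 3 motifs did not overlap in any of the 28 genes with a window. These are matches of letters and were not tested as binding sites.

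Mice of the same group differed widely in the synthesis enzymes. In Sham-Ad lib, library 3F was the highest of 4 for 19 of the 20 enzymes and 6F the lowest for 17. In Sham-WM, 9F was the highest for 19, and in VSG, 1F was the highest for 13 and 11F the lowest for 12. The ratio of the highest to the lowest mouse had a median over the 20 enzymes of 2.60 for Sham-Ad lib, 2.28 for Sham-WM and 1.73 for VSG. Sqle, a rate-controlling epoxidase, was the most variable in every group, with 154, 40.9, 15.9 and 78.5 CPM in the Sham-Ad lib libraries, 25.2, 112.5, 19.9 and 49.4 in the Sham-WM libraries and 72.0, 23.5, 15.1 and 26.9 in the VSG libraries. Its ratio of highest to lowest mouse was 9.69 in Sham-Ad lib, and its difference between VSG and Sham-WM did not exceed that spread (log2 fold change -0.59, SE 0.68, edgeR adjusted p = 0.545). Hsd17b7 was the most even in Sham-WM (ratio 1.24), Ebp in Sham-Ad lib (1.23) and Acat2 in VSG (1.22).

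The same order of mice shows when each library is summed up by the median over the enzymes of log2 CPM, each gene centred on its mean over the 12 libraries. For synthesis this median was 1.04, 0.14, -0.34 and 0.44 in the Sham-Ad lib libraries, 0.27, 0.97, -0.14 and 0.02 in Sham-WM and -0.26, -0.71, -1.17 and -0.72 in VSG. The VSG mice lay below all Sham-WM mice, while VSG library 1F lay above Sham-Ad lib library 6F. For the 8 efflux, uptake and storage genes the medians were 0.02, 0.16, -0.10 and 0.11 in the Sham-Ad lib libraries, -0.05, -0.27, -0.26 and -0.36 in those of Sham-WM and -0.01, 0.27, 0.17 and 0.55 in VSG. The 4 VSG values were above the 4 Sham-WM values and overlapped those of Sham-Ad lib.

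**Figure D4:**
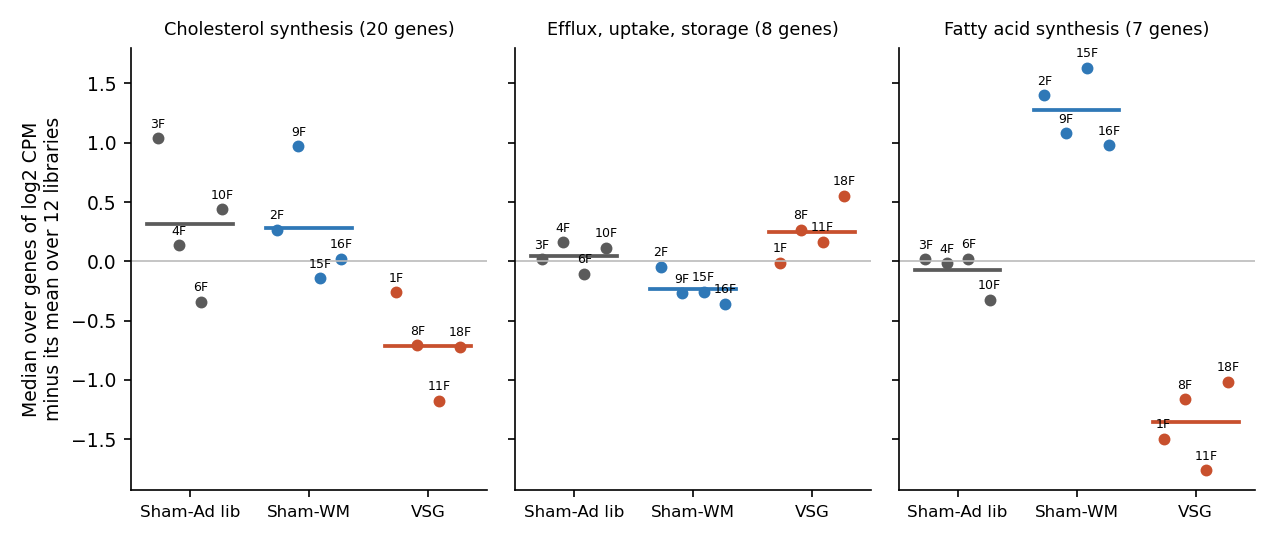
Median over the genes of a list of log2 CPM minus the gene's mean over 12 libraries (y axis, log2 units) for each library, by group; points are mice with their animal number and bars are group means. Synthesis medians were from -1.17 to -0.26 in VSG, and the spread among Sham-Ad lib mice reached from -0.34 to 1.04, while the fatty acid synthesis medians of the 3 groups did not overlap.

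Fatty acid synthesis shares acetyl-CoA with cholesterol synthesis and was set beside it. A list of 7 of its genes, taken from the study, which chose them on these samples, had a median log2 fold change of -2.81 for VSG versus Sham-WM (7 of 7 called lower, against 11.9% of all tested genes), -1.18 for VSG versus Sham-Ad lib (2 of 7 called lower, against 0.283%) and 1.10 for Sham-WM versus Sham-Ad lib (5 of 7 called higher, against 3.53%). The difference between this list and the cholesterol enzymes was not tested. The medians of single libraries can be set beside those for cholesterol synthesis. In the fatty acid list the Sham-Ad lib libraries 3F, 4F, 6F and 10F were at 0.02, -0.02, 0.02 and -0.32. In Sham-WM 9F was at 1.08, below 2F at 1.40 and 15F at 1.63 and above 16F at 0.98. VSG library 11F was the lowest of all 12 in both lists, at -1.17 and -1.76.

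Of the 3 regulators, Srebf2, which encodes the activator of the synthesis genes, stood at 66.7, 61.1, 41.0 and 52.7 CPM in the Sham-Ad lib libraries, 54.1, 66.5, 65.4 and 62.6 in the Sham-WM libraries and 49.4, 48.3, 24.9 and 46.1 in the VSG libraries. Its VSG values lay below all Sham-WM values, with library 11F far below the other 3, and the difference was just outside the threshold (log2 fold change -0.56, SE 0.20, edgeR adjusted p = 0.0531). DESeq2 called it lower (DESeq2 adjusted p = 0.0330). Nr1h2, which encodes LXR beta, stood at 29.0, 36.3, 33.2 and 31.7 CPM in the Sham-Ad lib libraries, 23.5, 27.2, 26.6 and 25.8 in the Sham-WM libraries and 35.9, 32.3, 27.5 and 32.9 in the VSG libraries. It was called higher in VSG than in Sham-WM (log2 fold change 0.32, SE 0.11, edgeR adjusted p = 0.0412), with the Sham-WM libraries below all others. Between VSG and Sham-Ad lib no difference was called, and the 95% interval of the log2 difference ran from -0.23 to 0.19. The call against Sham-WM held in 3 of the 12 fits that left out 1 library and was lost with DESeq2 size factors, with no filter on low counts, with only the 2 groups compared and with RUVs factors (edgeR adjusted p from 0.0547 to 0.304). Mylip, an LXR target that marks lipoprotein receptors for breakdown, was not called in any comparison and ran from 5.52 to 11.1 CPM.

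Among the 5 genes of traffic inside the cell, Rdh11, a retinol dehydrogenase whose gene is a known target of the Srebf2 product, was the 1 that edgeR called lower in VSG. It stood at 104.4, 47.3, 41.4 and 62.2 CPM in the Sham-Ad lib libraries, 53.7, 99.0, 41.0 and 38.6 in the Sham-WM libraries and 20.7, 26.4, 10.8 and 20.3 in the VSG libraries. The VSG libraries lay below all the others, the difference was called against Sham-WM (log2 fold change -1.56, SE 0.36, edgeR adjusted p = 0.00824), and it was just outside the threshold against Sham-Ad lib (log2 fold change -1.70, SE 0.36, edgeR adjusted p = 0.0502). Stard4, a sterol carrier in the cytosol, had negative differences after VSG that edgeR did not call (log2 fold change -0.86, SE 0.24, edgeR adjusted p = 0.0696 against Sham-Ad lib and log2 fold change -0.61, SE 0.24, edgeR adjusted p = 0.0734 against Sham-WM). DESeq2 called Stard4 lower in both comparisons (DESeq2 adjusted p = 0.0107 and 0.0437). Tmem97, a membrane protein that binds Npc1, ran from 57.7 to 119.9 CPM and was not called.

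Npc1 and Npc2 hand cholesterol out of the lysosome, and they differed in which group stood apart. Npc1, the membrane protein, stood at 191, 149, 202 and 206 CPM in the Sham-Ad lib libraries, 95.2, 102, 111.7 and 104.3 in the Sham-WM libraries and 91.4, 160.1, 122 and 158 in the VSG libraries. The Sham-WM libraries lay below all Sham-Ad lib libraries (log2 fold change -0.86, SE 0.17, edgeR adjusted p = 0.00922), a call that held in all 12 fits that left out 1 library. The VSG libraries covered a range that overlapped both, and edgeR did not call VSG against Sham-Ad lib (log2 fold change -0.49, SE 0.17, edgeR adjusted p = 0.107) or Sham-WM (log2 fold change 0.36, SE 0.17, edgeR adjusted p = 0.118). DESeq2 called Npc1 lower in VSG than in Sham-Ad lib (DESeq2 adjusted p = 0.0461). Npc2, the soluble protein, stood at 73.3, 88.4, 66.1 and 81.3 CPM in the Sham-Ad lib libraries, 73.6, 74.0, 70.2 and 61.1 in the Sham-WM libraries and 121, 91.6, 102 and 89.5 in the VSG libraries. It was called higher in VSG than in Sham-WM (log2 fold change 0.53, SE 0.13, edgeR adjusted p = 0.00884), and every VSG library lay above the other 8, by a narrow margin. Npc1 overlaps Rmc1 on the opposite strand.

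Storage of cholesterol as esters depends on Soat1 and Soat2. Soat1, the form found in most tissues and in macrophages, stood at 2.51, 6.59, 4.38 and 2.45 CPM in the Sham-Ad lib libraries, 3.72, 3.17, 4.23 and 2.92 in the Sham-WM libraries and 16.8, 10.1, 6.70 and 8.87 in the VSG libraries. It was low in all libraries, and VSG was 3.02-fold higher than Sham-WM (log2 fold change 1.60, SE 0.33, edgeR adjusted p = 0.00516). Against Sham-Ad lib it was 2.66-fold higher and just outside the threshold (edgeR adjusted p = 0.0542), and it was the 1 gene of the 36 that DESeq2 called higher there. Soat2, the hepatocyte form, had means of 39.2 ± 4.11 CPM in the freely fed mice, 31.4 ± 3.22 in the food-restricted mice and 34.1 ± 4.81 after VSG (SD, n = 4). Lcat, the secreted enzyme that esterifies cholesterol on lipoproteins, had the highest level per length of the 36 genes, 317 CPM per kb of exon over the 12 libraries, against 15.8 for Soat2 and 0.617, the lowest, for Soat1. Neither Soat2 nor Lcat was called in any comparison.

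Uptake from high-density lipoprotein was represented by its receptor, Scarb1. It stood at 186, 197, 198 and 232 CPM in the Sham-Ad lib libraries, 177, 187, 175 and 171 in the Sham-WM libraries and 259, 254, 208 and 334 in the VSG libraries. The VSG libraries lay above all Sham-WM libraries, library 18F highest, and the difference was called (log2 fold change 0.57, SE 0.13, edgeR adjusted p = 0.00896). Against Sham-Ad lib it was smaller and not called (log2 fold change 0.38, SE 0.13, edgeR adjusted p = 0.117), with VSG library 11F within the Sham-Ad lib range.

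Of the 4 efflux pumps, Abcg8 and Abcg1 were called higher in VSG than in Sham-WM, and Abcg5 and Abca1 were not called. Abcg8, which with Abcg5 forms the pump that sends sterols into bile, stood at 179.6, 160.1, 149 and 151 CPM in the Sham-Ad lib libraries, 119, 81.0, 62.0 and 62.4 in the Sham-WM libraries and 118, 177, 139.8 and 194 in the VSG libraries. It was 1.97-fold lower in Sham-WM than in Sham-Ad lib (log2 fold change -0.98, SE 0.21, edgeR adjusted p = 0.0140), a call lost when library 15F or 16F was left out (highest edgeR adjusted p = 0.0547), and 1.94-fold higher in VSG than in Sham-WM (log2 fold change 0.96, SE 0.21, edgeR adjusted p = 0.00621), where VSG library 1F and Sham-WM library 2F overlapped. VSG and Sham-Ad lib had close means, 157 ± 34.7 and 159.9 ± 14.01 CPM (SD, n = 4), with a 95% interval of the log2 difference from -0.43 to 0.38. Abcg5, the partner, stood at 105.8, 111.9, 108.8 and 83.5 CPM in the Sham-Ad lib libraries, 118, 67.1, 64.1 and 74.0 in the Sham-WM libraries and 72.9, 115.4, 143 and 133 in the VSG libraries. Sham-WM libraries 15F and 9F were the lowest of the 12, followed by VSG library 1F, and no difference was called (log2 fold change 0.53, SE 0.22, edgeR adjusted p = 0.0944 for VSG versus Sham-WM). Abcg5 (chr17:84658234-84683011 in mm10) and Abcg8 (chr17:84676302-84700333) overlap on opposite strands of chromosome 17, so reads from one may have been counted for the other.

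The bases between the Abcg5 start and the Abcg8 start that faces it (chr17:84683012-84683120, plus strand of Abcg8) are shown because both genes read outward from them.
Between Abcg5 and Abcg8: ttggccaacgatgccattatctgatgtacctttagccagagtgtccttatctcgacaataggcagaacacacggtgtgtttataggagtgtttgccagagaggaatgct
They hold none of the 3 motifs. The RefSeq windows of the Abcg5 start and the facing Abcg8 start share 209 bases. The other Abcg8 start lies 6819 bases away, inside the span of Abcg5, and its window shares none.

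Abca1, which loads cholesterol onto new high-density lipoprotein, stood at 241, 231, 198 and 229 CPM in the Sham-Ad lib libraries, 226, 236, 254 and 232 in the Sham-WM libraries and 195, 222, 134 and 211 in the VSG libraries. It was not called in any comparison, and its differences were negative after VSG (log2 fold change -0.24, SE 0.14, edgeR adjusted p = 0.319 against Sham-Ad lib and log2 fold change -0.32, SE 0.14, edgeR adjusted p = 0.114 against Sham-WM), with VSG library 11F lowest of all 12. Every VSG library lay below every Sham-WM library. With 2 RUVr factors edgeR called Abca1 against Sham-Ad lib and against Sham-WM, in fits that called 23.2% and 42.2% of all tested genes. Abcg1, which passes cholesterol to mature high-density lipoprotein and is prominent in macrophages, stood at 5.19, 8.79, 6.00 and 4.08 CPM in the Sham-Ad lib libraries, 6.42, 5.42, 5.198 and 2.98 in the Sham-WM libraries and 12.3, 11.3, 7.37 and 10.3 in the VSG libraries. It was called higher in VSG than in Sham-WM (log2 fold change 1.04, SE 0.26, edgeR adjusted p = 0.0129), and it was not called against Sham-Ad lib (log2 fold change 0.78, SE 0.26, edgeR adjusted p = 0.107), where library 4F lay within the VSG range. Abca1 and Abcg1, both LXR targets, had log2 fold changes of opposite sign after VSG, of which only that of Abcg1 against Sham-WM was called.

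Soat1, Abcg1, Npc2 and Abca1 are used by macrophages as well as hepatocytes, and markers of such cells differed between the groups. Over 6 Kupffer cell markers the summed level ran from 113.4 to 375 CPM in Sham-Ad lib, from 104.1 to 183 in Sham-WM and from 389 to 1117 in VSG. Against Sham-WM 6 of 6 were called higher in VSG, where 15.0% of all tested genes were, and against Sham-Ad lib 2 of 6 were, where 0.467% of all tested genes were, and none was at 0 in all libraries. Over 6 recruited macrophage markers the sum ran from 35.9 to 138 in Sham-Ad lib, from 30.9 to 62.7 in Sham-WM and from 139 to 527 in VSG (4 of 6 called higher against Sham-WM and 0 of 6 against Sham-Ad lib by edgeR, where 4 had an unadjusted p under 0.05 and DESeq2 called 4). Over 5 neutrophil markers, 3 of which could be tested, the sum ran from 0.324 to 10.2, from 1.12 to 1.94 and from 17.8 to 616 in the same order, and all 3 were called higher in VSG in both comparisons. VSG library 1F had the highest sum of all 3 lists and the highest Soat1, Abcg1 and Npc2, and in Sham-Ad lib library 4F had the highest of all 3 lists and of all 3 genes. At the other end, VSG library 18F had the lowest VSG sum of all 3 lists and the lowest VSG level of Npc2, while the lowest VSG levels of Soat1 and Abcg1 were those of library 11F. Without library 4F edgeR called 13 of the 36 genes between VSG and Sham-Ad lib, 11 as lower and 2, Soat1 and Abcg1, as higher. That fit called 6.82% of all tested genes, where the fit with all 12 libraries called 0.751%. Abca1 went the other way, with log2 fold changes after VSG of -0.24 against Sham-Ad lib and -0.32 against Sham-WM, neither called. It stood at 195 CPM in VSG library 1F, below all Sham-WM and Sham-Ad lib libraries. The part of these cells in the levels of Soat1, Abcg1, Npc2 and Abca1 was not tested. Hepatocyte markers summed to 98239 to 114791 CPM in Sham-Ad lib, 115845 to 142678 in Sham-WM and 71667 to 115105 in VSG. Each VSG sum was thus below each Sham-WM sum, and Alb alone ran from 52421 to 121331 CPM over the 12 libraries. Of the 6 markers, 2 were called lower in VSG than in Sham-WM, where 11.9% of all tested genes were. The part of hepatocyte content in the levels of the synthesis enzymes was not tested. Of the 4 pancreas markers, Cpa1 and Pnlip were at 0 in all 12 libraries, Prss2 had at most 2 counts in a library, and Cela2a reached 1.13 CPM. Of the 4 fat cell markers, Lep was at 0 in all 12 libraries and Adipoq and Plin1 had at most 1 count in a library. Cfd, the fourth, ran from 5.33 to 10.2 CPM in Sham-Ad lib, from 0.112 to 0.764 in Sham-WM and from 0.171 to 1.79 in VSG, and it was called lower than in Sham-Ad lib in both other groups (log2 fold change -4.44, edgeR adjusted p = 8.77e-04 for Sham-WM and log2 fold change -2.87, edgeR adjusted p = 0.0435 for VSG).

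Beyond the 36 genes, 38 others of sterol sensing, transport, lipoprotein handling and bile acid synthesis were listed, of which 36 could be tested. For VSG versus Sham-WM 3 were called higher and 10 lower, where 15.0% and 11.9% of all tested genes were, with a median log2 fold change of -0.04. For VSG versus Sham-Ad lib 1 was called lower and 0 higher by edgeR, where 0.283% and 0.467% of all tested genes were (14 had an unadjusted p under 0.05 in either direction, and DESeq2 called 5 lower and 0 higher), with a median of -0.24. For Sham-WM versus Sham-Ad lib 3 were called higher and 1 lower, where 3.53% and 3.45% of all tested genes were, with a median of -0.06. The proteins that hold the Srebf2 product in the endoplasmic reticulum were among those called: Insig1 was lower in VSG than in Sham-WM (log2 fold change -1.64, SE 0.28, edgeR adjusted p = 0.00198) and so was Insig2 (log2 fold change -1.68, SE 0.27, edgeR adjusted p = 0.00139), and Insig2 was higher in Sham-WM than in Sham-Ad lib (log2 fold change 1.39, SE 0.26, edgeR adjusted p = 0.00791). Lipa, the lysosomal enzyme that frees cholesterol from esters upstream of Npc1 and Npc2, was lower in VSG than in Sham-WM (log2 fold change -0.68, SE 0.10, edgeR adjusted p = 0.00112) and higher in Sham-WM than in Sham-Ad lib (log2 fold change 0.38, SE 0.10, edgeR adjusted p = 0.0421), the reverse of the direction seen for Npc1 between the sham-operated groups.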

How the data were processed

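Liver RNA of 12 mice (4 VSG, 4 Sham-WM, 4 Sham-Ad lib) was sequenced as poly(A), directional libraries. Per the labels and the study's methods, the authors aligned reads to mm10 with TopHat2 2.1.1 and deposited raw counts per Ensembl gene from featureCounts. The annotation release and the strand setting of the counting are not given in the sources used here. Of 46078 genes, 22987 were at 0 throughout, and symbols were matched through GENCODE M21. All 12 count columns were used (columns not used: 0) and grouped by the animal number in the titles.

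Counts were TMM-scaled and filtered (edgeR filterByExpr, minimum count 10, minimum total 15), which left 13054 genes, and tested with edgeR 4.0.16 in R 4.3.3 (quasi-likelihood, all 12 libraries, no covariate, Benjamini-Hochberg over all tested genes). Log2 CPM used a prior count of 2. Alternatives were DESeq2 1.42.0, its size factors, no filter, only the groups compared, RUVr or RUVs factors (k = 2, since the study used RUVSeq without naming the form), the other label field, and leaving out each library.

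The labels give 1 mouse per library. The 36 genes and all lists were chosen with earlier results of these data known, so no p was computed over a list. Genes of the 36 past the threshold in at least 1 comparison are described library by library and the rest by range. Promoter stretches were shown for up to 4 synthesis and 2 efflux genes with the lowest p in VSG versus Sham-WM that had a window. Other pathway genes past the threshold are mostly counted and not named.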

Additional observations from a re-analysis of the deposited data

Results flagged for a closer look

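Over the 36 genes in 3 groups, in 2 sets of 4 libraries (1.85% of the sets), 1 library lay far from the other 3 by Dixon's gap ratio on log2 CPM, where chance flags about 1 group in 20. Tm7sf2, a sterol reductase, was at 52.5 CPM in VSG library 8F and between 77.4 and 80.3 CPM in the other 3 VSG libraries (gap ratio 0.914). Srebf2 was at 24.9 CPM in VSG library 11F and between 46.1 and 49.4 CPM in the other 3 (gap ratio 0.898). No cause was tested for either.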

How the results depend on the processing

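For VSG versus Sham-Ad lib, where 3 of the 36 genes were called, DESeq2 called 16, the fit with no filter on low counts 16 and the fit with 2 RUVr factors 21, while 2 RUVs factors, the fit of only the 2 groups compared and the grouping by the other label field gave 0. Leaving out 1 library at a time gave 0 to 13, in fits that called 0 to 1089 genes of any kind. None of the 3 calls was made in all 12 such fits. For VSG versus Sham-WM, where 16 were called, RUVs factors gave 4, with 487 genes of any kind called, and the other label field 0. Leaving out 1 library gave 12 to 19, in fits that called 2196 to 3868 genes of any kind, and 12 of the 16 calls were made in all 12 such fits. For Sham-WM versus Sham-Ad lib, where 2 were called, the other label field gave 0. Leaving out 1 library gave 1 to 3 there, in fits that called 424 to 1311 genes of any kind. The causes were not tested. Medians were not computed for the grouping by the other label field. Over the 18 other alternatives the median log2 fold change of the synthesis enzymes ran from -1.46 to -0.86 for VSG versus Sham-Ad lib. It ran from -1.22 to -0.77 for VSG versus Sham-WM, and from -0.32 to 0.15, on either side of 0, for Sham-WM versus Sham-Ad lib. That of the efflux, uptake and storage genes ran from 0.07 to 0.24, from 0.44 to 0.68 and from -0.32 to -0.15 in the same order. Over all genes, DESeq2 called 1227 between VSG and Sham-Ad lib where edgeR called 98, and no filter gave 628, RUVr 3034, RUVs 6 and only the 2 groups 0. No called gene of the 36 changed direction under any of these 18 alternatives, which leave out the other label field. No paired analysis was possible because the groups share no replicate numbers. With 4 mice a group, the differences between VSG and Sham-WM were measured least precisely for Sqle (SE 0.68 on the log2 scale) and Mvd (SE 0.54).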
